A study of Homo sapiens with 40 samples.

Results

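The genes described here are 44 genes whose products copy DNA during S phase, the part of the cell cycle in which a cell duplicates its genome. They were chosen by name from a list of replication genes, and all 44 were found among the 44584 gene names of the count table. The list covers 8 steps: licensing of origins (10 genes), helicase activation (6), polymerases and primase (8), the sliding clamp and its loaders (6), maturation of Okazaki fragments (2), single-strand binding and fork protection (4), nucleotide supply (5), and chromatin assembly with maintenance methylation (3). All 44 passed the filter on low counts in both lines (at least 1 count in 50% of the libraries), so that none was lost from the counts given here.

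Bulk mRNA was sequenced from BT474, a HER2-positive luminal breast cancer line, and from BT474R, its clone 5, obtained after weeks of growth with trastuzumab, an antibody against HER2. BT474R therefore stands for 1 clone, and both lines were grown and treated as cultures without other cell types. Cells were starved of serum for 14 to 16 h, and a first set was collected at that point (T0). The others received EGF at 50 ng/mL, HRG (heregulin) at 10 ng/mL or vehicle (water) and were collected after 1, 12 or 24 h, with 2 libraries in each of the 20 groups. EGF binds the receptor EGFR and HRG binds HER3 and HER4, and both ligands draw HER2 into signalling dimers. The treatments were done in duplicate, and no source used here says that the duplicates came from separate cultures or days. The p-values therefore measure the spread between duplicate libraries, pooled over the groups of a fit, which may be technical. In bulk RNA, a change in the number of cells in S phase and a change in the amount of RNA per cell cannot be told apart.

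Before S phase, the origin recognition complex (ORC), CDC6 and CDT1 load the MCM2-7 ring onto DNA. Kinases then convert the ring into an active helicase with CDC45 and the GINS complex, polymerases follow with their clamp PCNA, and nucleotides are supplied by ribonucleotide reductase and thymidylate synthesis. In cells that leave quiescence after a growth signal, many of these genes are known to be transcribed under E2F factors, which RB-family proteins hold back until cyclin-dependent kinases act.

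RefSeq promoters (GRCh38.p14, 250 bases before to 50 after the annotated start) were matched by symbol for 37 of the 44 genes. A word like the one E2F factors are known to bind (TTTCCCGC, TTTCGCGC, TTTGCCGC or TTTGGCGC, on either strand) was present in 21 of these 37 (56.8%), against 1090 of 27305 genes in the whole reference table (4.0%). In 18 of the 37 it began between 70 bases before and 10 bases after the start. With only the forms TTTGGCGC and TTTCCCGC, the share was 51.4% against 2.7%. A CCAAT word was present in 59.5% (39.7% of all genes) and a GC box, GGGCGG, in 75.7% (48.3%). The word TTTGAA, the CHR element of promoters read late in the cell cycle, was present in 2 of the 37 (5.4%) against 18.2% of all genes. A match describes letters only and is not a measured binding site. The last 100 bases before the start are shown for 5 genes that carry the same word, GCGGGAAA (TTTCCCGC read on the other strand, in capitals), in different places; they come from a clamp loader subunit, a methylation cofactor, a helicase subunit, a licensing factor and the clamp.

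RFC3, chr13:33818049-33818148, plus strand: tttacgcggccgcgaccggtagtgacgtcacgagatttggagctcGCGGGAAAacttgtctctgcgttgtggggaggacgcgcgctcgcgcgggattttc
UHRF1, chr19:4909401-4909500, plus strand: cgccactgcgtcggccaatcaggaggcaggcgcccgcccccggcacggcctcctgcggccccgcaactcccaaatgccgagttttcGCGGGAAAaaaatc
GINS2, chr16:85688955-85689054, minus strand: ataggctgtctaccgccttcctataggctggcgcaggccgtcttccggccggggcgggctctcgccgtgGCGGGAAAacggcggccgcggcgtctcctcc
CDT1, chr16:88803689-88803788, plus strand: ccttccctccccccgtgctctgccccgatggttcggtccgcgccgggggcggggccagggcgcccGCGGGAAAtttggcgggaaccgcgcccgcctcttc
PCNA, chr20:5126623-5126722, minus strand: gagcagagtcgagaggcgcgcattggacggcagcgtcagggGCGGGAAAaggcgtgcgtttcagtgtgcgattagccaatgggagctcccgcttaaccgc

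Counted back from the start, the word begins at -55 in RFC3, -14 in UHRF1, -31 in GINS2, -35 in CDT1 and -59 in PCNA. These 5 were picked by their response. Among genes chosen by role with a whole word before the start, they had the largest HRG change at 12 h in BT474. Their rise with HRG was thus part of the choice and says nothing about the word. All 5 genes also rose with EGF at 12 h in BT474, as described below by step. As a description, the median log2 fold change with HRG at 12 h in BT474 was 0.49 for the 21 genes with a word and 0.51 for the 16 matched genes without one, and with EGF it was 0.40 and 0.39. At 24 h in BT474 the medians were 0.25 and 0.38 with HRG and 0.20 and 0.30 with EGF.

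Libraries held 19200632 to 29098915 assigned reads in BT474 and 16794594 to 33387936 in BT474R, and the lowest count of a member in any library was 129 (POLE2). The 8 luminal markers (such as ERBB2, KRT8 and KRT19) were expressed in both lines. Of 6 markers of other cell types, 5 stayed at or below 0.732 counts scaled to the library total (CPM) in every library. The exception, COL1A1, a collagen of fibroblasts, reached 74.7 to 112 CPM in BT474 and 162 to 282 CPM in BT474R. The part of COL1A1 in the results was not tested. Of the luminal markers, GATA3 was at 314 to 574 CPM in BT474 but at only 9.94 to 54.6 CPM in BT474R. Replicates differed most within the BT474R vehicle and HRG groups at 24 h, where the median chi-square between replicates over genes was 1.58 and 2.56 against 0.595 to 1.27 in the other 18 groups. Results that rest on single libraries are therefore given with and without them.

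The first comparison asked how each ligand moved the members against the vehicle of the same time, by the quasi-likelihood F test of edgeR, with p-values adjusted by Benjamini-Hochberg over all genes of the line (threshold 0.05). At 1 h no member was called with either ligand in either line. The unadjusted p was under 0.05 for 2 members with EGF and 6 with HRG (1 of them lower) in BT474. In BT474R it was so for 1 with each ligand, and DESeq2 called none. Over the whole BT474 fit, 5.7% of genes passed this unadjusted threshold upward and 4.76% downward after EGF. After HRG the upward share was 6.39% and the downward share 5.66%. The BT474R fit had 3.04% upward and 2.61% downward after EGF, then 2.77% upward and 1.59% downward after HRG. Estimates at 1 h ran from -0.17 (POLE2) to 0.19 (GINS4) with EGF and from -0.18 (DSCC1) to 0.22 (PRIM1) with HRG in BT474, and from -0.13 (POLD1) to 0.21 (MCM10) and from -0.13 (PRIM2) to 0.20 (CLSPN) in BT474R. After adjustment, 1.65% of all genes were called higher at 1 h with EGF and 2.16% with HRG in BT474, and 0.416% and 0.169% in BT474R.

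At 12 h in BT474, nearly the whole set rose. EGF raised 41 of 44 members (9.04% of all genes tested rose), with a median log2 fold change of 0.40, and HRG raised 40 of 44 (13.3% of all genes), with a median of 0.50. No member fell. The median over all genes was -0.03 and -0.02. Those not called were PRIM2, RPA2 and RPA3 with EGF, and PRIM2, POLD1, RPA2 and RPA3 with HRG. At 24 h EGF raised 38 (9.71% of all genes; median 0.23) and HRG 41 (12.5%; median 0.29), again with none lower. At 24 h the lowest estimate belonged to POLD1 (0.03 ± 0.06 and -0.09 ± 0.06) and the highest to DSCC1 (0.52 ± 0.10 and 0.69 ± 0.09). The EGF and HRG comparisons of one time share their vehicle libraries, so they are set side by side and are not independent.

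In BT474R fewer members were called at 12 h than at 24 h. At 12 h EGF raised 11 of 44 members (6.85% of all genes; median 0.17) and HRG 15 (2.38%; median 0.23). At 24 h EGF raised 31 (9.95%; median 0.30) and HRG 28 (1.89%; median 0.30). No member fell at either time. Single libraries weigh heavily here. Without EGF 12 h replicate 1 the count of 11 became 1, without EGF 12 h replicate 2 it became 5, and without vehicle 12 h replicate 1 it became 2. With HRG at 12 h the count of 15 became 1 without HRG replicate 1, 3 without HRG replicate 2 and 1 without vehicle replicate 1. At 24 h, without vehicle replicate 1, the EGF count fell from 31 to 16 and the HRG count from 28 to 0. Without HRG 24 h replicate 2 the HRG count was 10, and with only the 4 libraries compared it was 0. The medians moved less, to 0.225 with EGF and 0.21 with HRG without vehicle 24 h replicate 1. Without the filter on low counts 18 and 24 members were called at 12 h with EGF and HRG, and with only the libraries compared 22 with EGF.

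**Figure D1:**
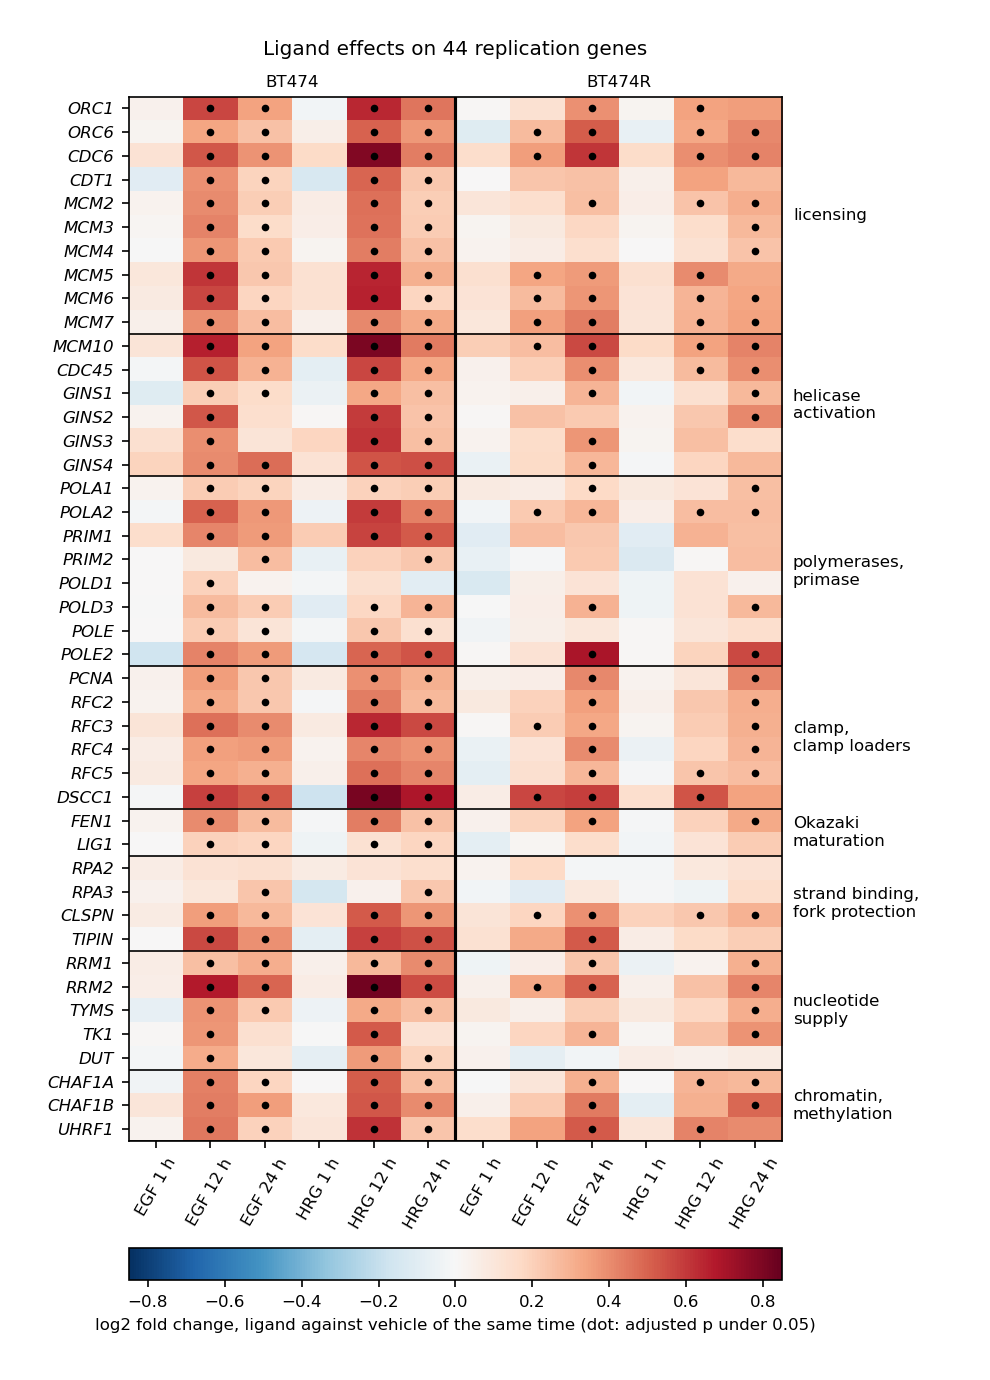
Log2 fold change of each of the 44 genes (vertical, grouped by step) against the vehicle of the same time, for each ligand, time and line (horizontal); a dot marks an adjusted p under 0.05 by edgeR. The 12 h columns of BT474 carry 41 and 40 dots, and those of BT474R 11 and 15.

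Licensing genes rose as a block in BT474. All 10 rose with both ligands at 12 h, with a median of 0.41 with EGF and 0.50 with HRG, and all 10 rose at 24 h, with medians of 0.23 and 0.28. CDC6, which with CDT1 loads the MCM ring, stood at 56.6 and 52.0 CPM in the 12 h vehicle libraries of BT474, at 79.8 and 76.9 in the EGF libraries and at 94.5 and 92.9 in the HRG libraries. The 3 groups did not overlap. With 2 libraries in each group, such separation can also occur in unchanged genes. Its share over all genes was not counted, here or below. The log2 fold changes of CDC6 were 0.53 ± 0.06 (SE) with EGF and 0.78 ± 0.06 with HRG (adjusted p = 3.79e-09 and 3.24e-14 by edgeR). ORC1, a subunit of the origin recognition complex, was at 15.9 and 15.3 CPM with vehicle, 23.2 and 23.0 with EGF and 23.1 and 25.4 with HRG. CDT1 went from 37.6 and 39.0 CPM to 48.3 and 51.9 with EGF and to 52.6 and 55.3 with HRG.

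The subunits of the MCM2-7 ring, the core of the replicative helicase, moved together but not by the same size. MCM2 was at 94.4 and 94.7 CPM with vehicle at 12 h in BT474, at 123 and 127 in the EGF libraries and at 125 and 136 in the HRG libraries. MCM5 was at 57.1 and 58.3 CPM with vehicle, 86.8 and 88.8 with EGF and 88.1 and 92.3 with HRG, a log2 fold change of 0.61 ± 0.06 and 0.65 ± 0.05. Vehicle and ligand libraries were separate for both genes. MCM5 and MCM6 had the largest EGF changes of the ring (0.61 and 0.57) and MCM4 the smallest (0.37). With HRG the range was 0.41 for MCM7 to 0.66 for MCM6.

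In BT474R at 12 h, 5 of 10 licensing genes rose with EGF (ORC6, CDC6, MCM5, MCM6 and MCM7; step median 0.25) and 7 with HRG (ORC1, ORC6, CDC6, MCM2, MCM5, MCM6 and MCM7; median 0.31). CDC6 was at 69.7 and 74.0 CPM with vehicle, 91.7 and 91.8 with EGF and 94.6 and 94.3 with HRG, a log2 fold change of 0.35 ± 0.10 and 0.39 ± 0.10. MCM5 was at 68.4 and 74.9 CPM, 93.3 and 87.8, and 95.1 and 94.9. The ligand libraries of both genes lay above the vehicle libraries. CDT1 was at 26.7 and 29.0 CPM with vehicle, 33.5 and 32.1 with EGF and 33.6 and 37.2 with HRG. It was not called by edgeR (adjusted p = 0.183 and 0.0766). MCM3 and MCM4 were not called with either ligand at 12 h. MCM3 had 0.09 ± 0.07 and 0.15 ± 0.07, and MCM4 0.07 ± 0.06 and 0.13 ± 0.06, in BT474R.

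Helicase activation showed the highest step median in BT474 at 12 h, 0.47 with EGF and 0.58 with HRG, and all 6 genes rose with both ligands. MCM10, a factor that acts when the loaded helicase starts to unwind, was at 38.1 and 35.4 CPM with vehicle, 56.1 and 60.5 with EGF and 63.3 and 64.5 with HRG. The log2 fold change was 0.66 ± 0.06 and 0.80 ± 0.06, a rise of 1.58-fold and 1.74-fold. CDC45, which joins the MCM ring and GINS in the working helicase, went from 25.9 and 26.0 CPM to 39.0 and 36.2 with EGF and to 39.6 and 37.5 with HRG. GINS2 went from 21.0 and 20.2 CPM to 28.7 and 30.9 and to 30.0 and 32.3. In all 3 genes vehicle and ligand libraries were apart, and GINS1 had the smallest change of the step (0.21 and 0.33).

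In BT474R only MCM10 of this step rose with EGF at 12 h (0.27 ± 0.08), and MCM10 and CDC45 rose with HRG (0.34 ± 0.08 and 0.27 ± 0.07). MCM10 was at 47.9 and 51.3 CPM with vehicle, 59.7 and 59.7 with EGF and 62.3 and 63.9 with HRG. CDC45 was at 35.003 and 33.9 CPM, 41.0 and 38.3, and 41.0 and 42.1. The libraries of vehicle and ligand did not overlap in either gene. By 24 h, 5 of the 6 had risen with EGF and 4 with HRG (step medians 0.34 with each), led by MCM10 at 0.56 and 0.42.

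Polymerases and primase moved less than licensing and helicase genes at 12 h. In BT474 the step median was 0.24 with EGF (7 of 8 rose) and 0.21 with HRG (6 of 8). Polymerase alpha-primase, the complex that starts each new strand, held both the largest change of the step and some of the smallest. POLA2, the accessory subunit of polymerase alpha, rose by 0.50 with EGF and 0.59 with HRG, and PRIM1, the small primase subunit that makes the RNA primer, rose by 0.42 and 0.58. POLA1, the catalytic subunit, rose by only 0.21 ± 0.04 and 0.20 ± 0.04, and PRIM2, the large primase subunit, had 0.09 ± 0.09 and 0.20 ± 0.08 and was not called.

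POLA1 stood at 114 and 115 CPM with vehicle at 12 h in BT474, 128 and 138 with EGF and 129 and 133 with HRG. PRIM1 stood at 18.9 CPM in both vehicle libraries, 24.8 and 25.7 with EGF and 27.0 and 29.2 with HRG. Vehicle libraries were lowest in both genes. Of the leading- and lagging-strand polymerases, POLE2, a subunit of polymerase epsilon, was at 10.3 and 10.4 CPM, 13.4 and 14.3, and 14.2 and 14.8, a rise of 0.42 ± 0.10 and 0.49 ± 0.10. POLE, its catalytic subunit, rose by 0.22 and 0.23. POLD1, the catalytic subunit of polymerase delta, was at 41.4 and 41.6 CPM with vehicle, 48.0 and 47.0 with EGF and 45.6 in both HRG libraries, and it passed the test with EGF only (0.20 ± 0.06 against 0.14 ± 0.06 with HRG). The difference between the ligands was not called for POLD1.

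In BT474R the same step had the lowest medians of the 8 at 12 h with HRG (0.12) and, at 0.06, with EGF, where nucleotide supply was equally low. POLA2 was the only gene of the 8 that rose, by 0.22 ± 0.06 with EGF and 0.27 ± 0.06 with HRG. POLA1 was at 119 and 124 CPM with vehicle, 126 and 128 with EGF and 130 and 133 with HRG, and it was not called. PRIM1 was at 20.5 and 22.9, 26.2 and 25.9, and 26.6 and 26.8, just outside the threshold (adjusted p = 0.0505 and 0.0536). At 24 h, 4 of 8 rose with each ligand, and POLE2 had the largest change of all 44 members. It was at 7.42 and 8.29 CPM with vehicle, 12.8 and 12.6 with EGF and 10.4 and 12.8 with HRG, and rose by 0.69 ± 0.12 and 0.56 ± 0.12. At 12 h the same gene had 0.12 ± 0.12 and 0.19 ± 0.12. The lowest estimate of all members at 24 h with HRG was in the same step, POLD1 with 0.04 ± 0.08.

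The clamp and its loaders all rose at 12 and 24 h in BT474, with step medians of 0.35 and 0.45 at 12 h. PCNA, the ring that holds the polymerases on DNA, was at 123 and 119 CPM with vehicle, 152 and 158 with EGF and 155 and 162 with HRG at 12 h. RFC3, a subunit of the loader that opens PCNA, was at 32.5 and 29.5 CPM, 42.9 and 43.2, and 47.2 and 49.7. DSCC1, part of an alternative loader tied to sister chromatid cohesion, was at 10.9 and 12.7 CPM, 17.2 and 18.0, and 19.4 and 21.6, and rose by 0.58 ± 0.10 and 0.81 ± 0.10. No ligand library overlapped with vehicle in these genes.

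DSCC1 was the member with the largest ligand effect in BT474R at 12 h (0.57 ± 0.11 with EGF, 0.54 ± 0.11 with HRG), from 9.48 and 9.59 CPM to 14.02 and 14.3 and to 13.6 and 14.1. PCNA stayed uncalled there, at 106 and 115 CPM with vehicle, 118 and 113 with EGF and 123 and 116 with HRG, and the EGF libraries overlapped with vehicle. RFC3 was at 43.8 and 48.5 CPM, 53.8 and 53.4, and 54.5 and 53.0, called with EGF only (adjusted p = 0.0466 against 0.0829 with HRG). The other called loader gene at 12 h was RFC5, with HRG. At 24 h all 6 rose with EGF and 5 with HRG, and PCNA rose by 0.41 ± 0.07 and 0.42 ± 0.07, from 98.0 and 121 CPM with vehicle to 144 and 146 with EGF and 144 and 148 with HRG.

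Of the Okazaki fragment genes, the nuclease had the larger values and the ligase the smaller. FEN1, the nuclease that trims the flap of each fragment, went from 86.2 and 81.8 CPM to 109 and 113 with EGF and to 112 and 115 with HRG at 12 h in BT474 (0.40 ± 0.05 and 0.43 ± 0.05). LIG1, the ligase that seals the fragments, rose by 0.19 ± 0.05 and 0.13 ± 0.05. In BT474R neither was called at 12 h, where FEN1 was at 78.5 and 79.7 CPM with vehicle, 90.3 and 90.2 with EGF and 90.3 and 91.2 with HRG. At 24 h FEN1 rose with both ligands (0.34 and 0.32) and LIG1 with neither (0.15 and 0.22).

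Among single-strand binding and fork protection genes, the fork genes were called at 12 h in BT474 and the binding subunits were not. RPA2 and RPA3, subunits of the protein that coats single-stranded DNA, were not called at 12 h in either line with either ligand. RPA3 gave the lowest value of all members in BT474R at 12 h (-0.10 ± 0.10 with EGF, -0.04 ± 0.10 with HRG) and in BT474 with HRG (0.04 ± 0.08). It rose at 24 h in BT474 by 0.23 with each ligand. CLSPN, the mediator that carries the checkpoint signal from a stalled fork, went from 51.6 and 51.3 CPM to 65.2 and 66.6 with EGF and to 71.9 and 75.6 with HRG at 12 h in BT474. In BT474R it went from 124 and 133 CPM to 147 and 145 and to 154 and 147 (0.19 ± 0.06 and 0.23 ± 0.06). TIPIN, a fork protection subunit, rose by 0.56 and 0.58 in BT474 and was not called in BT474R at 12 h (0.32 ± 0.11 and 0.16 ± 0.11).

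Nucleotide supply held the member with the largest change in BT474 at 12 h. RRM2, the regulatory subunit of ribonucleotide reductase, was at 125 and 117 CPM with vehicle, 187 and 199 with EGF and 209 and 218 with HRG, a rise of 0.67 ± 0.05 and 0.82 ± 0.05 (1.59-fold and 1.77-fold; adjusted p = 1.33e-13 and 1.12e-16). RRM1, the catalytic subunit of the same enzyme, rose less, from 99.6 and 96.4 CPM to 116 and 118 and to 114 and 123 (0.25 and 0.28). TYMS, which makes thymidylate, went from 40.2 and 40.7 CPM to 52.0 and 53.2 and to 48.7 and 52.2. All 3 were separate from vehicle in every library.

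TK1, the salvage thymidine kinase, went from 51.0 and 51.7 CPM to 65.7 and 67.7 with EGF and to 71.9 and 75.1 with HRG at 12 h in BT474, and it was no longer called at 24 h (0.14 ± 0.05 and 0.12 ± 0.05). DUT, which keeps uracil out of DNA, rose by 0.31 and 0.36 at 12 h and was called at 24 h with HRG only (0.19 against 0.09 with EGF). In BT474R the step median at 12 h was 0.06 with EGF and 0.18 with HRG, and RRM2 with EGF was its only called value. RRM2 was at 284 and 307 CPM with vehicle, 379 and 364 with EGF and 338 and 364 with HRG (0.33 ± 0.09 and 0.25 ± 0.09). RRM1 was at 99.2 and 108 CPM, 109 and 107, and 104 and 108, with overlap between the groups. TYMS (33.4 and 34.0 CPM, 35.5 and 34.0, 37.8 and 38.4) and TK1 (38.1 and 39.4 CPM, 46.3 and 41.8, 45.3 and 46.8) were likewise not called. At 24 h in BT474R, 3 of the 5 rose with EGF and 4 with HRG, with DUT near 0 in both (-0.02 ± 0.07 and 0.07 ± 0.07).

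Chromatin assembly and maintenance methylation genes all rose in BT474 at both times. UHRF1, which recruits the maintenance DNA methyltransferase, was at 48.9 and 50.5 CPM with vehicle, 68.4 and 67.0 with EGF and 73.2 and 78.9 with HRG at 12 h. CHAF1B, a subunit of the CAF-1 histone chaperone, was at 20.4 and 18.8 CPM, 25.9 and 27.2, and 28.2 and 28.5. The step medians at 12 h were 0.44 and 0.53. In BT474R they were 0.22 and 0.30, with CHAF1A and UHRF1 called with HRG. With EGF, CHAF1A, CHAF1B and UHRF1 missed the threshold (adjusted p = 0.309, 0.182 and 0.0531). UHRF1 was at 52.6 and 62.9 CPM with vehicle, 76.3 and 70.4 with EGF and 74.7 and 80.4 with HRG, and CHAF1B at 33.3 and 31.7, 38.2 and 37.5, and 38.1 and 41.8. Ligand libraries lay above vehicle in both genes. At 24 h all 3 rose with EGF, with a median of 0.44.

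**Figure D2:**
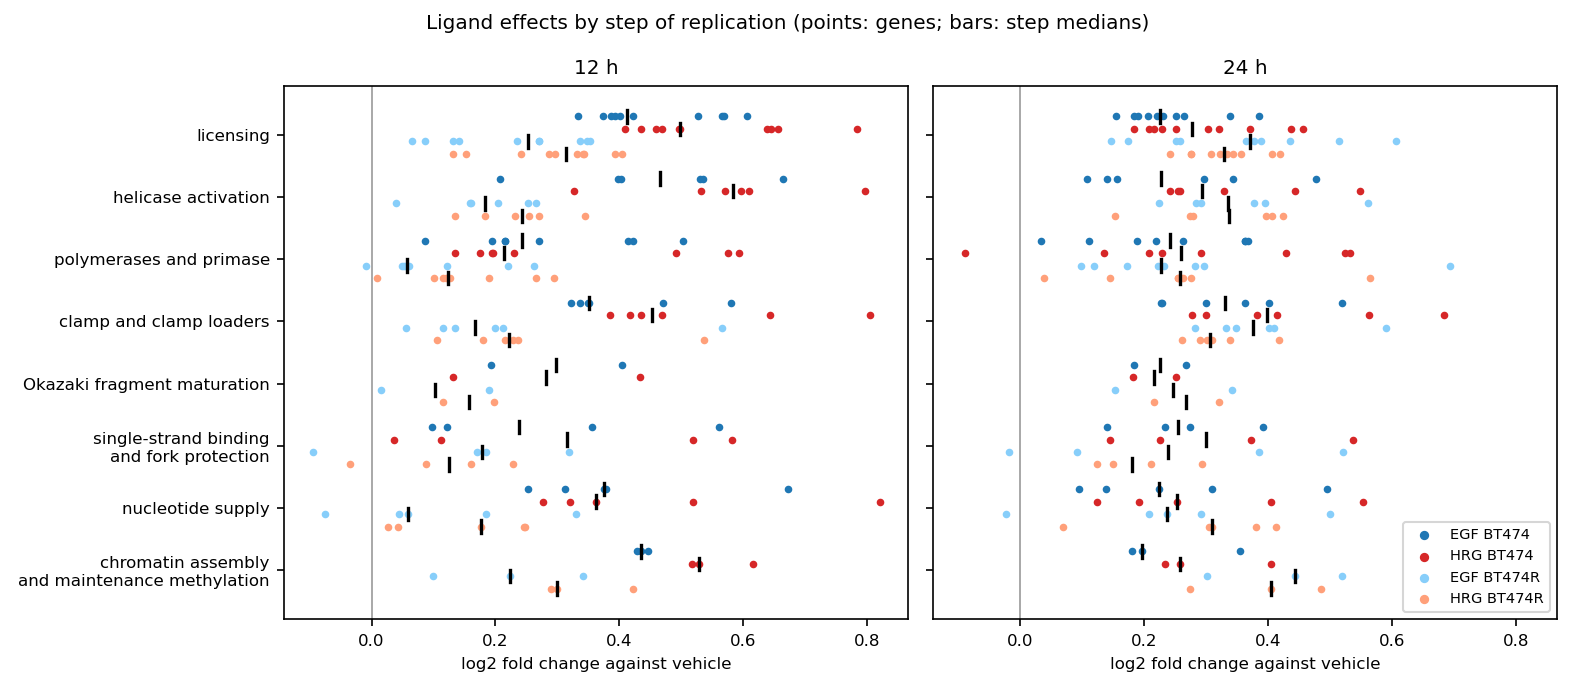
Log2 fold change against vehicle (horizontal) of each member (points) and the step medians (bars) for the 8 steps (vertical), at 12 and 24 h, by ligand and line. In BT474 at 12 h the medians of helicase activation (0.47 and 0.58), licensing (0.41 and 0.50) and chromatin genes (0.44 and 0.53) lie furthest right, and polymerases (0.24 and 0.21) lie to their left.

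The order of steps at 12 h is a description, since genes of a step are not replicates. In BT474 helicase activation, chromatin and licensing came first with both ligands, and polymerases with primase and the single-strand group came last with EGF (0.24 each), polymerases alone with HRG. In BT474R licensing came first with EGF (0.25) and HRG (0.31), beside chromatin genes (0.22 and 0.30) and helicase activation (0.18 and 0.24). The count called in BT474R at 12 h was 5 and 7 of 10 in licensing, against 1 and 1 of 8 among polymerases and primase and 1 and 0 of 5 in nucleotide supply. At 24 h the medians of the steps in BT474R ran from 0.23 for polymerases to 0.44 for chromatin genes with EGF. With HRG they ran from 0.18 for the single-strand group to 0.40 for chromatin genes. With neither ligand did the lowest and highest step medians lie closer together than at 12 h.

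Set against each other at the same time, HRG and EGF differed for 1 member. CDC6 at 12 h in BT474 was higher with HRG by 0.26 ± 0.05 (adjusted p = 0.00424 by edgeR; 1.22% of all genes were higher with HRG there). The unadjusted p was under 0.05 for 15 members, all higher with HRG (6.55% of all genes). Without HRG 12 h replicate 1 or without EGF 12 h replicate 2 the call was lost, and with only the 4 libraries compared 6 members were called. No member was called at the other times or in BT474R: the unadjusted p was under 0.05 for 1 and 6 members at 1 and 24 h in BT474 and for 0, 2 and 3 at 1, 12 and 24 h in BT474R, and DESeq2 called none. Among all genes in BT474, that p was under 0.05 for 2.18% higher and 2.46% lower with HRG at 1 h, and 4.53% and 6.16% at 24 h. In BT474R the shares were 1.73% and 1.1% at 1 h, 3.62% and 5.43% at 12 h, and 7.67% and 8.05% at 24 h. The estimate was larger with HRG for 37 of 44 members at 12 h in each line and at 24 h in BT474, and for 19 of 44 at 24 h in BT474R. Such counts of signs, here and below, were not tested. Members share the same libraries and are not independent, and the share over all genes was not counted.

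Whether the ligand effect grew or shrank between 12 and 24 h was tested as a difference of effects. In BT474 the estimate was larger at 12 h for 38 of 44 members with EGF and 35 with HRG. EGF gave 3 called members, all smaller at 24 h (0.227% of all genes were called in this direction): MCM6 by -0.38 ± 0.06, MCM5 by -0.38 ± 0.08 and MCM3 by -0.27 ± 0.06. This count was 1 without any of vehicle 12 h replicate 1, EGF 12 h replicate 2 or EGF 24 h replicate 1, and 6 without EGF 24 h replicate 2. HRG gave 10 (1.73% of all genes), led by MCM6 (-0.47 ± 0.06), TK1 (-0.39 ± 0.07), UHRF1 (-0.38 ± 0.08), MCM10 (-0.36 ± 0.08) and CDC6 (-0.35 ± 0.08). It was 6 without vehicle 12 h replicate 2 and 4 without HRG 12 h replicate 2. Licensing genes made up all 3 called with EGF and 5 of the 10 with HRG (CDC6, MCM2, MCM3, MCM5 and MCM6).

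The vehicle libraries had higher levels at 24 h than at 12 h where the effect shrank, as in MCM6 and TK1, but also where it did not. In POLA1 the vehicle change from T0 was -0.04 at 12 h and 0.34 at 24 h, while its HRG effect changed by 0.01. A link between vehicle levels and the smaller effects was not tested. MCM6 was at 108 and 107 CPM in vehicle at 12 h and 142 and 140 at 24 h, while with HRG it was at 170 and 169 and then at 159 and 162. TK1 was at 51.0 and 51.7 CPM in vehicle at 12 h and 71.7 and 72.7 at 24 h, and with HRG at 71.9 and 75.1 and then 79.7 and 77.7. In MCM6 the HRG libraries were slightly lower at 24 h, and in TK1 slightly higher. GINS4, a GINS subunit, kept its effect, with 0.40 and 0.53 at 12 h and 0.48 and 0.55 at 24 h, while its vehicle libraries were at 22.04 and 20.9 CPM and then 24.8 and 26.0.

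In BT474R the estimate was larger at 12 h for only 3 of 44 members with EGF and 9 with HRG, but none passed the test of the change. The unadjusted p was under 0.05 for 10 members with EGF and 3 with HRG, all larger at 24 h, and DESeq2 called none. Among all genes 0.107% were called larger at 24 h with EGF and 0% with HRG, and 4.37% and 3.45% were larger with an unadjusted p under 0.05. The difference between the lines in this change was tested as a contrast added after the data were seen. No member was called by edgeR (0.0365% and 0.0284% of all genes were higher), and DESeq2 called 3 and 1. The unadjusted p was under 0.05 for 24 members with EGF and 13 with HRG, all higher (3.29% and 3.07% of all genes). The estimates were positive for 43 and 40 of 44, with medians of 0.30 and 0.19. MCM6 with HRG had 0.50 ± 0.12 (adjusted p = 0.091).

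**Figure D3:**
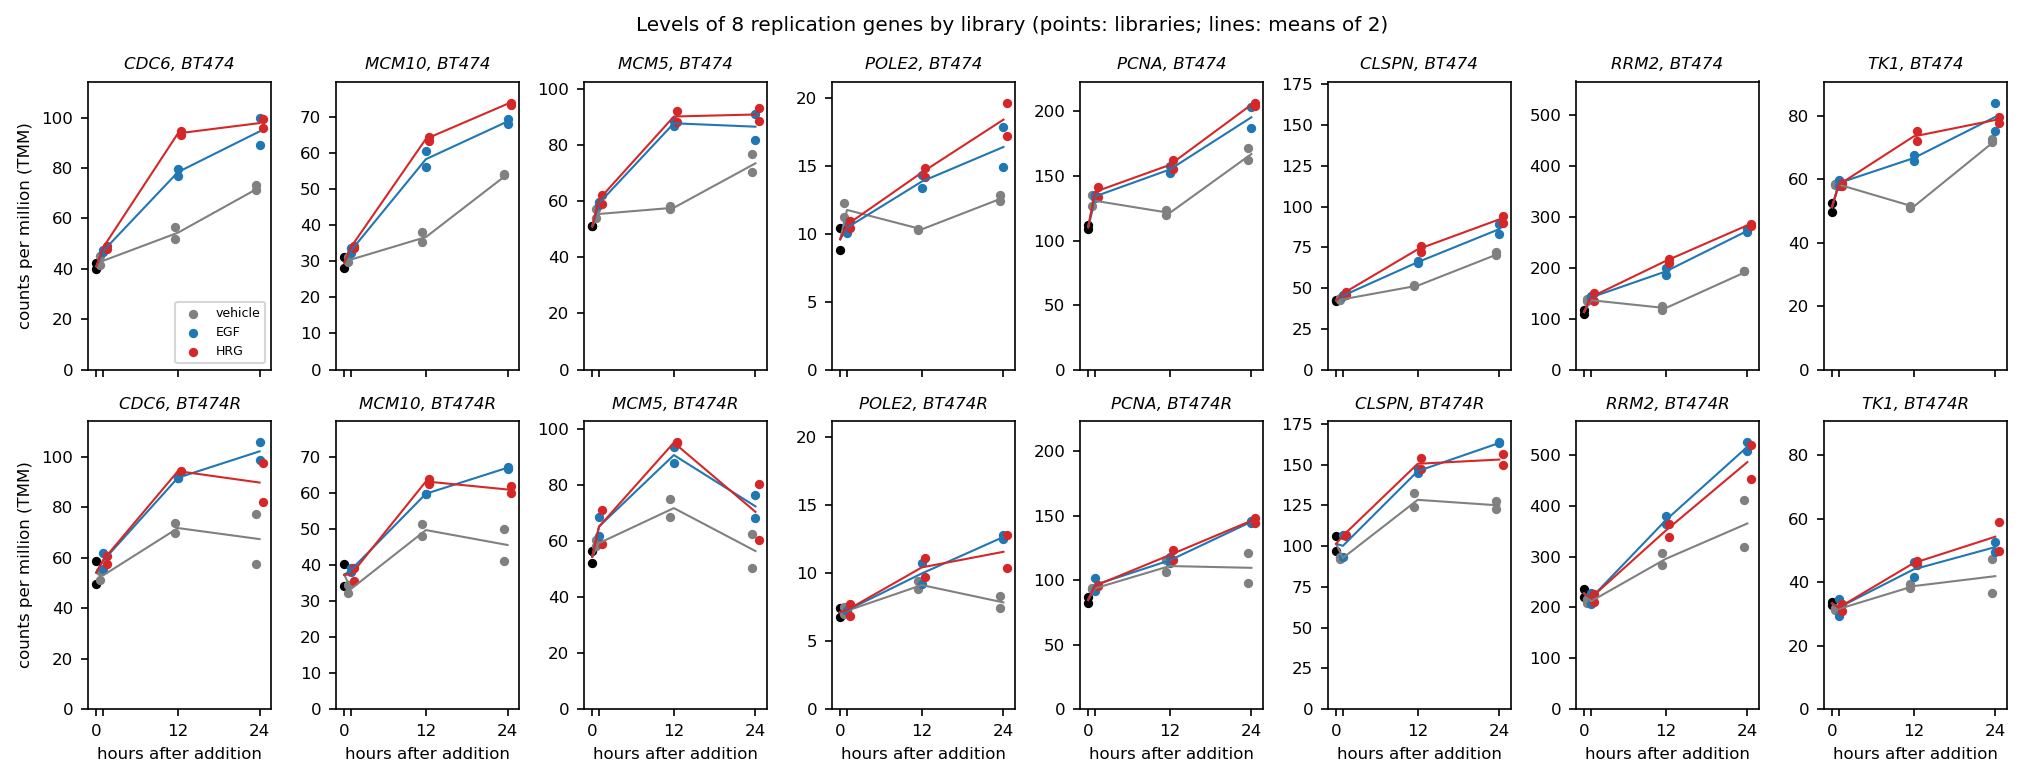
Normalised counts, CPM (vertical, from 0, scaled per gene) against hours after addition (horizontal) for 8 members in BT474 (upper) and BT474R (lower); points are libraries and lines join the means of 2. In BT474 the vehicle line of RRM2 lies at 125 and 117 at 12 h, below the libraries with EGF (187 and 199) and HRG (209 and 218).

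The size of the ligand effect was then compared between the lines. At 12 h EGF moved 12 members less in BT474R than in BT474 (1.03% of all genes were lower), and HRG 13 (2.91%). None was moved more. Over all 44 the median difference was -0.23 with EGF and -0.26 with HRG, against -0.02 and -0.01 over all genes. With EGF the 5 largest differences were in ORC1 (-0.45 ± 0.12), MCM10 (-0.42 ± 0.10), DUT (-0.40 ± 0.10), MCM3 (-0.35 ± 0.09) and TYMS (-0.35 ± 0.09). With HRG they were in RRM2 (-0.59 ± 0.10), MCM10 (-0.47 ± 0.10), RFC3 (-0.44 ± 0.10), CDC6 (-0.41 ± 0.12) and MCM6 (-0.38 ± 0.08). The remaining called members were MCM2, MCM4, MCM6, CDC45, POLA2, PCNA and CHAF1A with EGF, and MCM3, MCM4, CDC45, GINS4, POLA2, PCNA, CLSPN and RRM1 with HRG.

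Licensing, which holds 10 of the 44 members, contributed 5 of the 12 with EGF and 4 of the 13 with HRG. Of the 8 polymerase and primase genes, POLA2 was the only one in either. The called differences ran from -0.26 to -0.59, and their number rests on few libraries. With EGF the count of 12 was 6 by DESeq2 and 0 to 6 when any 1 library was left out. It was 0 without BT474R vehicle 12 h replicate 2 and 0 without BT474R EGF 12 h replicate 2. With HRG the count of 13 was 12 by DESeq2 and 23 with only the libraries compared, and it fell to 1 without BT474R vehicle 12 h replicate 2 and to 3 or 4 without BT474 vehicle 12 h replicate 2, BT474 HRG 12 h replicate 2 or BT474R HRG 12 h replicate 2. It was 7 or 8 without BT474R HRG 12 h replicate 1, BT474 vehicle 12 h replicate 1 or BT474 HRG 12 h replicate 1, and 11 without BT474R vehicle 12 h replicate 1.

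At 1 h and at 24 h no member differed between the lines. At 24 h, 1.92% of all genes had a larger EGF effect in BT474R and 2.09% a smaller HRG effect. The unadjusted p was under 0.05 for 6 members with EGF, all larger in BT474R (6.42% of all genes), and 8 with HRG, all smaller (8.6%). At 1 h it was so for 3 and 1, all smaller (3.64% and 3.51% of all genes). DESeq2 called none at either time. The median difference at 24 h was 0.07 with EGF and -0.02 with HRG. Without BT474R vehicle 24 h replicate 2, 4 members were called with EGF, and leaving out any 1 library gave at most 1 with HRG.

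**Figure D4:**
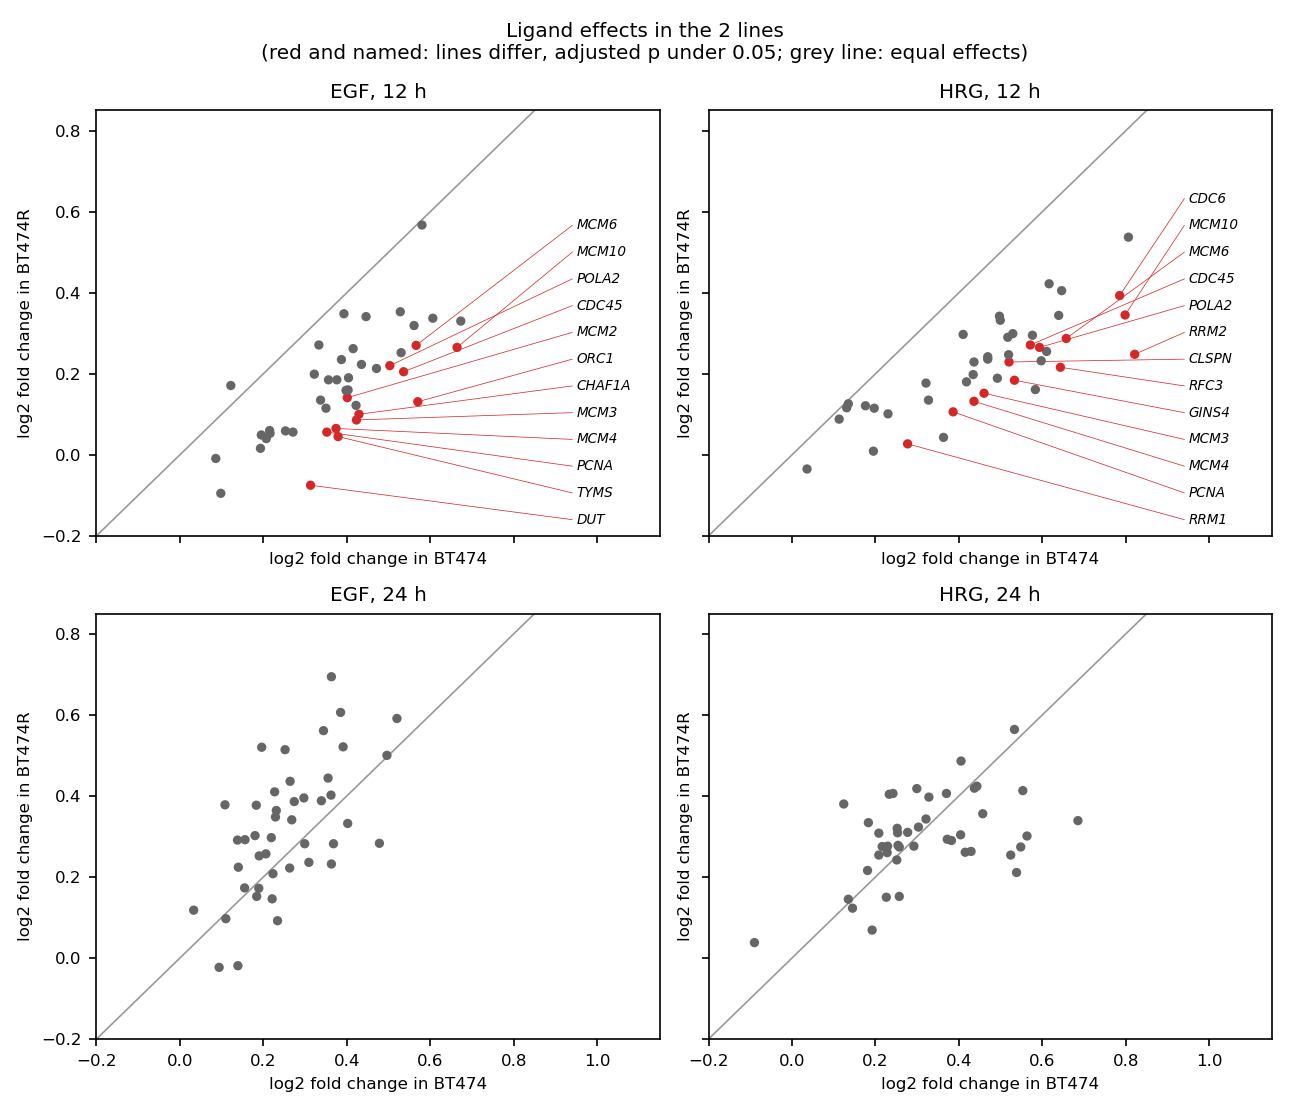
Log2 fold change in BT474R (vertical) against that in BT474 (horizontal) for each member, by ligand and time; the grey line marks equal effects, and red, named points differ between the lines (adjusted p under 0.05 by edgeR). At 12 h most points lie below the line, with 12 named for EGF and 13 for HRG, and at 24 h none is named.

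Levels also drifted without ligand. In BT474 vehicle at 12 h, 8 members were higher than at T0 (3.15% of all genes rose) and 1 was lower (3.26% of all genes fell). Those higher were ORC1, ORC6, CDC6 (0.41 ± 0.06), CDT1, MCM6, MCM10, CLSPN and UHRF1 (0.37 ± 0.06), of which 5 belong to licensing, and the one lower was RFC3 (-0.34 ± 0.07). Fewer members were called when any 1 of the T0 or vehicle 12 h libraries was left out. At 24 h, 39 of 44 were higher than at T0 (5.17% of all genes), with a median of 0.45, led by MCM10 (0.86 ± 0.06) and CDC6 (0.81 ± 0.06). CDC6 was at 42.2 and 39.7 CPM at T0, 56.6 and 52.0 at 12 h and 73.3 and 71.2 at 24 h in vehicle, with no overlap between the times.

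In BT474R vehicle at 12 h, 9 members were higher than at T0 (0.354% of all genes): MCM2, MCM3, MCM6 (0.48 ± 0.07), MCM10, CDC45, POLD3, PCNA, CLSPN and RRM2. This count was 1 without T0 replicate 2, 1 without vehicle 12 h replicate 2 and 5 without T0 replicate 1, and 23 with only the libraries compared. At 24 h, 23 were higher (6.83% of all genes), with a median of 0.29, and RRM2 led (0.68 ± 0.09). Without T0 replicate 2 or without vehicle 24 h replicate 2 the count was 9. RRM2 was at 235 and 220 CPM at T0, 284 and 307 at 12 h and 318 and 412 at 24 h. UHRF1 was at 48.6 and 44.2 CPM at T0 and at 40.3 and 49.7 at 24 h, with overlap, and had the lowest change of the set (-0.05 ± 0.12).

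The vehicle libraries are the reference of every comparison of a ligand with vehicle, and their median change from T0 was not the same in the 2 lines. In vehicle at 12 h the median change of the members from T0 was 0.07 in BT474 and 0.22 in BT474R. At the same time it was 0.44 with EGF and 0.52 with HRG in BT474, and 0.41 and 0.47 in BT474R. The part of the vehicle change in the smaller ligand effects of BT474R at 12 h was not tested. At 24 h the order was turned around in vehicle, with 0.45 in BT474 and 0.29 in BT474R, and the ligand medians were 0.73 (EGF) and 0.78 (HRG) in BT474 against 0.57 and 0.54 in BT474R.

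**Figure D5:**
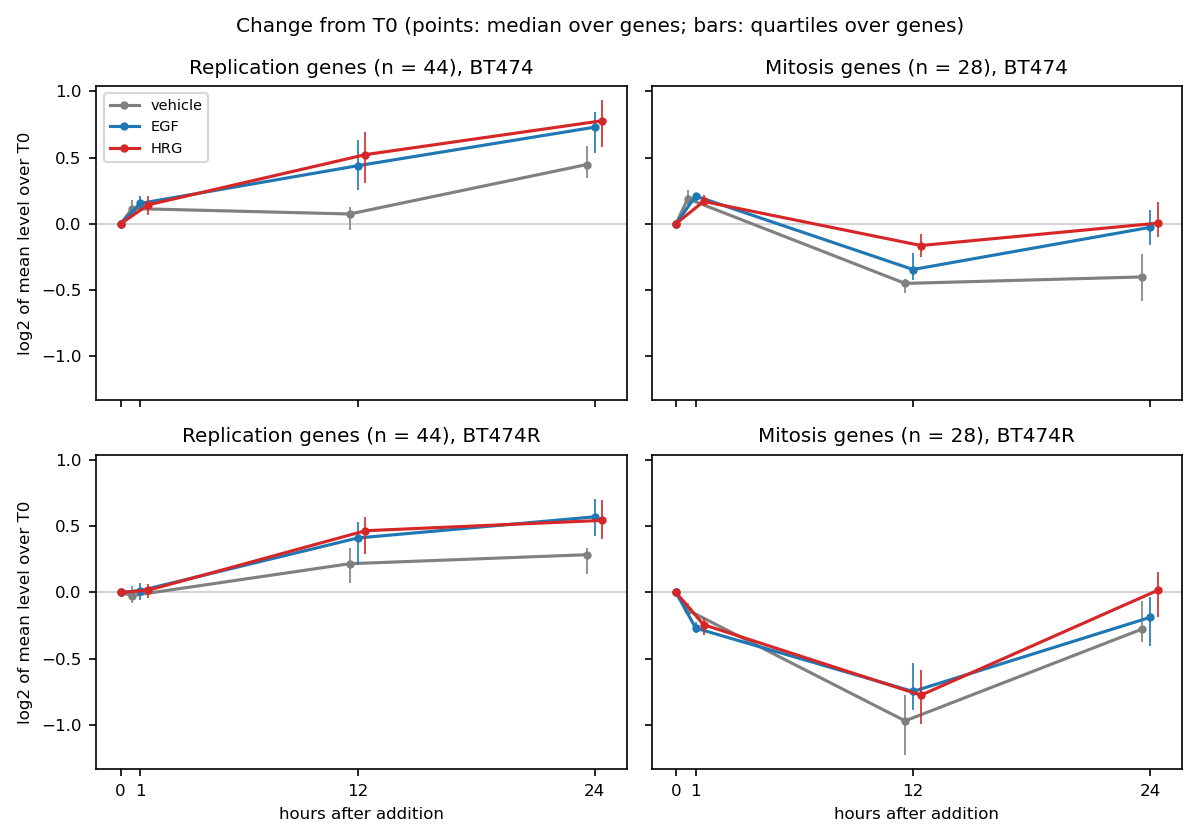
Median log2 of the mean level over T0 (vertical; bars are quartiles over genes) against hours after addition (horizontal) for the 44 replication genes and for 28 mitosis genes, by line and treatment. In vehicle at 12 h the replication genes lie at 0.07 (BT474) and 0.22 (BT474R), and the mitosis genes at -0.45 and -0.97.

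The change from T0 was compared between the lines as a contrast added after the data were seen. In vehicle at 12 h, 1 member differed, POLA2, with a change greater by 0.36 ± 0.08 in BT474R (0.467% of all genes were higher). It was at 59.7 and 64.6 CPM at T0 and 56.7 and 55.8 at 12 h in BT474, and at 57.3 and 52.0 and then 63.5 and 64.9 in BT474R. With ligand at 12 h all called members changed less in BT474R. EGF gave 4 (3.6% of all genes): ORC1 (-0.43 ± 0.13), GINS4 (-0.37 ± 0.11), ORC6 (-0.34 ± 0.10) and POLE (-0.28 ± 0.07). HRG gave 7 (5.35%), led by GINS4 (-0.47 ± 0.11), ORC6 (-0.44 ± 0.10), CDC6 (-0.41 ± 0.13), MCM10 (-0.36 ± 0.10) and CLSPN (-0.25 ± 0.08), with POLE and RRM1 beside them. The EGF count of 4 became 1 by DESeq2, 2 with its size factors or with filterByExpr, and 0 without a filter on low counts. When 1 library was left out the counts were 0 to 2 for EGF and 0 to 4 for HRG, and POLA2 was lost without BT474 T0 replicate 2 or BT474R T0 replicate 2. With only the libraries compared, 13 members were called in vehicle and 11 with HRG, and without the filter 3 in vehicle.

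At 24 h the smaller change in BT474R was seen in vehicle as well. Vehicle gave 14 members (3.37% of all genes), led by UHRF1 (-0.80 ± 0.14), MCM10 (-0.58 ± 0.10), CDC6 (-0.51 ± 0.13), ORC6 (-0.51 ± 0.10) and MCM5 (-0.49 ± 0.14). EGF gave 10 (8.11%), led by UHRF1 (-0.48 ± 0.14), POLE (-0.39 ± 0.07), MCM10 (-0.37 ± 0.10), GINS4 (-0.36 ± 0.11) and CLSPN (-0.35 ± 0.08). HRG gave 22 (8.37%), led by UHRF1 (-0.66 ± 0.14), MCM10 (-0.64 ± 0.10), CLSPN (-0.57 ± 0.08), CDC6 (-0.56 ± 0.13) and TIPIN (-0.56 ± 0.15). When 1 library was left out the counts ranged from 6 (without BT474R vehicle 24 h replicate 1) to 20 for vehicle, from 3 (without BT474R T0 replicate 1) to 9 for EGF and from 12 (without BT474R T0 replicate 1) to 24 for HRG. The vehicle count was also 7 to 9 without BT474R T0 replicate 1, either BT474 T0 library or BT474 vehicle 24 h replicate 1. Leaving out either BT474 T0 library, either BT474 EGF 24 h library or BT474R EGF 24 h replicate 1 gave 5 or 6 for EGF, and leaving out BT474 T0 replicate 1 gave 14 for HRG. With only the libraries compared the HRG count was 11, and with a block for the replicate number within each time point the EGF count was 17.

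The levels themselves differed between the lines before any ligand, in both directions (CPM are scaled within each line, the fold changes over both). At T0, 18 members were higher in BT474R (25.1% of all genes were) and 9 lower (21.7%). The share of members lower was near that of all genes. CLSPN was at 42.1 and 42.8 CPM in BT474 and at 106 and 96.7 in BT474R, a difference of 1.36 ± 0.06, and RRM2 was at 117 and 109 against 235 and 220 (1.11 ± 0.08). Neither pair of groups overlapped. ORC1 (0.71 ± 0.10) and MCM6 (0.52 ± 0.06) were also higher, and TK1 (-0.51 ± 0.08) was the lowest. In vehicle at 12 h, 24 were higher (25.6% of all genes) and 3 lower (23.4%), with CLSPN (1.41 ± 0.06), RRM2 (1.38 ± 0.08), CHAF1B (0.82 ± 0.09), ORC1 (0.74 ± 0.09) and MCM6 (0.70 ± 0.06) at the top. The 3 lower were CDT1, TYMS and TK1.

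At 24 h in vehicle the balance was the other way, with 6 members higher (26.6% of all genes) and 19 lower (22.8%). RRM2 (1.01 ± 0.07) and CLSPN (0.91 ± 0.05) were still higher in BT474R, and TK1 (-0.70 ± 0.08), CDT1 (-0.66 ± 0.08) and POLE2 (-0.60 ± 0.12) were lower. TK1 was at 71.7 and 72.7 CPM in BT474 and at 36.6 and 47.3 in BT474R. Within nucleotide supply, the reductase subunit RRM2 was thus higher and the thymidylate genes TK1 and TYMS lower in BT474R at all 3 times.

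Further replication genes outside the set were followed as a list of 43, chosen by role, of which 42 were tested. In BT474 at 12 h, EGF raised 25 and lowered 1 of them and HRG raised 27 and lowered 2, with medians of 0.19 and 0.23. These counts are 59.5% and 64.3% higher, beside 9.04% and 13.3% of all genes, and 2.38% and 4.76% lower, beside 6.99% and 12.5%. At 24 h EGF raised 18 (42.9% beside 9.71%) and lowered 1, and HRG raised 26 (61.9% beside 12.5%) and lowered 2. In BT474R at 12 h, EGF raised 3 and lowered 1 and HRG raised 1 and lowered 1. The shares raised there, 7.14% and 2.38%, were near those of all genes, 6.85% and 2.38%. At 24 h 18 rose with EGF (42.9% beside 9.95%) and 12 with HRG (28.6% beside 1.89%), and none fell. The difference in share between these genes and the 44 was not tested. Named after their values were seen, GMNN, the inhibitor of CDT1, rose by 0.46 ± 0.07 with EGF and 0.48 ± 0.07 with HRG at 12 h in BT474, and ASF1B, a histone chaperone, by 0.39 ± 0.07 and 0.57 ± 0.06. RRM2B, the p53-inducible reductase subunit that serves outside S phase, fell at 12 h in both lines, by -0.16 ± 0.05 and -0.18 ± 0.05 in BT474 and by -0.30 ± 0.07 and -0.27 ± 0.07 in BT474R. Its direction was thus opposite to that of RRM2, the S phase subunit.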

How the data were processed

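The authors deposited gene-level read counts (whole numbers, not normalized) for 40 libraries. According to the study's methods and the submitters' processing notes, they checked reads with FastQC 0.11.8, trimmed adaptors with Trim Galore 0.6.6, aligned to GRCh38.p13 with Rsubread 2.6.4 and summed reads per gene with its featureCounts. Which annotation was used, whether counting used strand and how multi-mapping reads were treated are not given in the sources used here, so reads shared by overlapping genes cannot be separated.

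All columns were mapped to samples (0 left unmapped), and groups were taken from the sample labels. Counts were fitted in edgeR 4.0.16 (R 4.3.3) with TMM scaling and quasi-likelihood F tests. Genes needed at least 1 count in 50% of the libraries. Each line was fitted by itself (20 libraries; 25146 genes tested in BT474 and 24287 in BT474R), and both together (40 libraries, 24641 genes) for differences between lines. A gene was called at a Benjamini-Hochberg adjusted p under 0.05 over all genes tested. SE is the log2 fold change divided by the square root of F. CPM, counts divided by the TMM-scaled library total, were computed within each line (marker CPM from the plain totals). The scripts were tested on simulated counts.

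Alternatives were DESeq2 1.42.0, its size factors in edgeR, no filter, filterByExpr, only the libraries compared, a replicate block, and each library left out in turn, with the dispersion trend kept, the gene-wise quasi-likelihood dispersion estimated again and the lone library taken to vary like the other groups. A block within each time point and the contrasts described as added were chosen after the data were seen.

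The 44 members, the other gene lists and the tests were chosen with earlier results of these data known. Named genes were 21 anchors chosen by role, the highest and lowest member of each ligand comparison, up to 5 called members with the largest differences in every other comparison, and members that describe their step. Promoters came from a RefSeq table of GRCh38.p14, in which 7 members had no entry. Depth per library was 16794594 to 33387936 counts, and every member had at least 129 counts in each.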

Additional observations from a re-analysis of the deposited data

Results flagged for a closer look

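Each value here is a difference between effects that passed edgeR's test of the difference itself (a contrast of contrasts, adjusted p under 0.05); values are on the log2 scale.

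The EGF effect at 12 h was smaller in BT474R than in BT474 for ORC1 (-0.45), MCM2 (-0.275), MCM3 (-0.35), MCM4 (-0.32), MCM6 (-0.31), MCM10 (-0.415), CDC45 (-0.345), POLA2 (-0.30), PCNA (-0.31), TYMS (-0.35), DUT (-0.40) and CHAF1A (-0.34). The HRG effect at 12 h was smaller for CDC6 (-0.41), MCM3 (-0.32), MCM4 (-0.32), MCM6 (-0.38), MCM10 (-0.47), CDC45 (-0.31), GINS4 (-0.36), POLA2 (-0.34), PCNA (-0.29), RFC3 (-0.44), CLSPN (-0.30), RRM1 (-0.26) and RRM2 (-0.59). The EGF and HRG values share the vehicle libraries.

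Within BT474 the EGF effect was smaller at 24 h than at 12 h for MCM3 (-0.27), MCM5 (-0.375) and MCM6 (-0.38), and the HRG effect for CDC6 (-0.35), MCM2 (-0.26), MCM3 (-0.24), MCM5 (-0.34), MCM6 (-0.47), MCM10 (-0.355), RRM2 (-0.27), TK1 (-0.39), CHAF1A (-0.26) and UHRF1 (-0.38).

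The change from T0 differed between the lines in contrasts added after the data were seen, all of which share the T0 libraries. At 12 h it was smaller in BT474R with EGF for ORC1 (-0.43), ORC6 (-0.34), GINS4 (-0.37) and POLE (-0.28), with HRG for 7 members, of which ORC6 (-0.44), CDC6 (-0.41), MCM10 (-0.36), GINS4 (-0.47) and CLSPN (-0.25) were furthest apart and POLE (-0.24) and RRM1 (-0.25) also passed, and it was greater in BT474R with vehicle for POLA2 (0.36). At 24 h the 5 members furthest apart were ORC6 (-0.505), CDC6 (-0.51), MCM5 (-0.49), MCM10 (-0.58) and UHRF1 (-0.795) with vehicle, MCM10 (-0.37), GINS4 (-0.36), POLE (-0.39), CLSPN (-0.35) and UHRF1 (-0.475) with EGF, and CDC6 (-0.56), MCM10 (-0.64), CLSPN (-0.57), TIPIN (-0.56) and UHRF1 (-0.66) with HRG.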

How the results depend on the processing

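The duplicates limit what these data can show: in BT474R and between the lines, the number of called members moved with single libraries, while in BT474 the ligand counts at 12 and 24 h kept within 1.5 times their value under every alternative run. The cause of these moves was not tested.

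Leaving out 1 library at a time gave these ranges of called members. In BT474 they were 37 to 39 (EGF 12 h), 26 to 37 (EGF 24 h), 38 to 40 (HRG 12 h), 35 to 41 (HRG 24 h), 0 to 1 (HRG against EGF at 12 h and at 24 h), 1 to 6 and 4 to 10 (24 h minus 12 h, EGF and HRG), and 5 to 6 and 37 to 38 (vehicle at 12 and 24 h against T0). In BT474R they were 1 to 11 (EGF 12 h), 16 to 37 (EGF 24 h), 1 to 11 (HRG 12 h), 0 to 33 (HRG 24 h), 0 to 2 (HRG against EGF 24 h), 0 to 1 (EGF 24 h minus 12 h), and 1 to 7 and 9 to 26 (vehicle at 12 and 24 h against T0). For effects compared between the lines they were 0 to 6 and 0 to 4 (EGF 12 and 24 h), 1 to 11 and 0 to 1 (HRG), and 0 to 4 for the change of each ligand effect with time. For the change from T0 compared between the lines they were 0 to 3, 0 to 2 and 0 to 4 at 12 h (vehicle, EGF, HRG) and 6 to 20, 3 to 9 and 12 to 24 at 24 h.

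Without the filter on low counts the counts became 2 (HRG against EGF 12 h, BT474), 18 and 24 (EGF and HRG 12 h, BT474R), 1 (EGF 24 h minus 12 h, BT474R), 20 (vehicle 12 h against T0, BT474R), 7 and 1 (EGF effect between lines at 12 and 24 h), 3 and 2 (its change with time, EGF and HRG), and 3 and 0 (change from T0 between lines at 12 h, vehicle and EGF). With only the libraries compared they became 6 (HRG against EGF 12 h, BT474), 22 (EGF 12 h, BT474R), 0 (HRG 24 h, BT474R), 23 (vehicle 12 h against T0, BT474R), 23 (HRG effect between lines 12 h), and 13, 11 and 11 (change from T0 between lines, vehicle 12 h, HRG 12 h and HRG 24 h). DESeq2 called 6 for the EGF effect between lines at 12 h, 3 and 1 for the change of the EGF and HRG effects with time between lines, and 1 for the change from T0 with EGF at 12 h, its size factors in edgeR 7 and 2 for the first and last of these, and filterByExpr 2 for the last.

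Replicate numbers were not taken to pair samples: of 18 pairs of groups of one time, 7 had same-number correlations of deviations over 0.1 and 2 under -0.1 (range -0.20 to 0.51). With a replicate block the HRG effect at 24 h and the change of the EGF effect with time each gave 1 member that differed between lines, and no other count moved by over 1.5 times. A block within each time point, added after the data were seen, gave 2 (HRG against EGF 12 h, BT474), 5 (EGF 24 h minus 12 h, BT474), 1 (HRG effect between lines 24 h), 2 and 1 (change of effects with time between lines, EGF and HRG) and 17 (change from T0 between lines, EGF 24 h).

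Among 460 results, all on single members except the promoter share, only those on uncalled members changed sign. With 1 library left out they ran over these values. In BT474 they were GINS3 and POLD1 with EGF at 24 h (-0.004 to 0.20 and -0.087 to 0.153) and RPA3 with HRG at 12 h (-0.029 to 0.11). In BT474R with EGF at 12 h they were GINS1 (-0.01 to 0.086), LIG1 (-0.02 to 0.09), RPA3 (-0.173 to 0.032), DUT (-0.113 to 0.002) and PRIM2 (-0.099 to 0.134, and 0.005 by DESeq2, 0.003 with its size factors, 0.006 without the filter), and at 24 h POLD1 (-0.002 to 0.254), RPA2 (-0.05 to 0.027) and DUT (-0.125 to 0.092). With HRG they were PRIM2 (-0.075 to 0.161), RPA3 (-0.104 to 0.101) and RRM1 (-0.015 to 0.127) at 12 h, and POLD1 (-0.095 to 0.173), RPA2 (-0.017 to 0.23), RPA3 (-0.045 to 0.30) and DUT (-0.045 to 0.185) at 24 h. The share of promoters with an E2F-like word was 51.4% with 2 word forms.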

Other observations

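The G1/S regulators, a list of 27 genes around E2F, RB and the G1 cyclins, moved in both directions. In BT474 at 12 h, EGF raised 16 (59.3%, beside 9.04% of all genes) and lowered 2 (7.41% beside 6.99%), and HRG raised 16 (59.3% beside 13.3%) and lowered 3 (11.1% beside 12.5%). The shares lowered were thus near those of all genes. In BT474R EGF raised 10 (37% beside 6.85%) and lowered 2 (7.41% beside 5.13%), and HRG raised 3 (11.1% beside 2.38%) and lowered 1 (3.7% beside 1.73%). E2F1, an activator of the replication genes, rose by 0.59 ± 0.07 with EGF and 0.64 ± 0.07 with HRG at 12 h in BT474, and by 0.29 ± 0.07 and 0.34 ± 0.07 in BT474R. CCND1, the cyclin that first responds to growth factors, rose by 0.44 ± 0.04 and 0.69 ± 0.04 in BT474. CDKN1A, an inhibitor of cyclin-dependent kinases, had a larger change than any replication member, with 1.03 ± 0.12 and 1.37 ± 0.11 in BT474 at 12 h. In BT474R it rose with EGF (1.24 ± 0.26) and had 0.40 ± 0.27 with HRG, which was not called. RBL2, the pocket protein p130 of quiescent cells, fell with both ligands at 12 h, by -0.54 ± 0.05 and -0.68 ± 0.05 in BT474 and by -0.26 ± 0.05 and -0.30 ± 0.05 in BT474R. These genes were named after their values were seen.

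Mitosis genes followed another course. In vehicle at 12 h all 28 were lower than at T0 in both lines (3.26% of all genes were in BT474 and 0.774% in BT474R), with medians of -0.45 in BT474 and -0.97 in BT474R, when the replication genes had medians of 0.07 and 0.22. With EGF in BT474, 11 of 28 mitosis genes rose at 12 h (39.3%, beside 9.04% of all genes) and 28 at 24 h (9.71% of all genes), and with HRG 26 (92.9% beside 13.3%) and 28 (12.5% of all genes). In BT474R, 15 of them were higher with EGF at 12 h (53.6% beside 6.85%). At 24 h EGF had 2 higher and 2 lower, 7.14% each way, beside 9.95% and 7.37% of all genes, while HRG raised 8 at 12 h (28.6% beside 2.38%) and 11 at 24 h (39.3% beside 1.89%). With EGF at 24 h, 18 of the 28 had a smaller effect in BT474R (64.3%, beside 2.09% of all genes), as had none of the 44 replication genes by edgeR. For the replication genes the unadjusted p was under 0.05 for 6, all larger in BT474R (6.42% of all genes), and DESeq2 called none.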
